A study of Mus musculus with 9 samples.

Results

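Selenbp1, Htra3, Mrap2 and Tro are 4 of the 27370 genes counted in sorted mouse stromal cells. They were chosen by a measured value: their CPM was far lower in red pulp fibroblasts (RPF) after macrophage depletion than in RPF at steady state. That difference is therefore a description here and carries no test. No numeric threshold was part of the choice, and each symbol stood on 1 row of the table.

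PolyA RNA was measured in 9 libraries of 3 groups, and each library pooled 2 mice. All mice were 4 months old and carried Wt1CreERT2, RosatdTomato and CD64DTR, so cells with a history of Wt1 expression are red and cells with an active CD64 promoter carry the diphtheria toxin receptor. Depleted RPF were tdTomato+ cells from the spleens of 6 mice given diphtheria toxin, and steady-state RPF were tdTomato+ cells from the spleens of 6 untreated mice. Fibroblastic reticular cells (FRC) were tdTomato- cells from the lymph nodes of 6 untreated mice. The protocol counts 12 mice in all, so FRC and steady-state RPF shared their mice, but no source says which libraries did. CD45- cells were enriched before the sort, and 45000 cells were sorted per group. Neither the toxin's dose and timing nor the induction of the Cre is stated in the labels. The steady-state mice had no toxin, so an effect of toxin and an effect of macrophage loss cannot be told apart.

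Red pulp fibroblasts form the scaffold in which the iron-recycling macrophages of the spleen sit, and FRC form the corresponding network of lymph nodes. Selenbp1 encodes a selenium-binding protein that oxidises methanethiol to hydrogen sulfide. Htra3 encodes a secreted serine protease of the HtrA family, which in mice cleaves small matrix proteoglycans and dampens signalling by TGF-beta ligands. Mrap2 encodes a small membrane protein that binds melanocortin receptors and alters their signalling, and is best known from the control of body weight. Tro encodes trophinin, a member of the MAGE protein family that in human trophoblast serves in cell adhesion.

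Libraries differed in ways that touch these results. Total counts ran from 25414645 to 43879806. Replicate 1 of steady-state RPF and replicate 1 of FRC had 24 and 69 Y-linked counts, while the other 7 libraries had between 2315 and 6124. Mitochondrial genes took 0.538% to 0.678% of counts in depleted RPF, 0.519% to 0.720% in steady-state RPF and 1.98% to 2.24% in FRC. The labels matched their markers: the summed level of 5 RPF genes (Wt1, Tcf21, Tlx1, Nkx2-5 and Coch) was 16218 to 20754 CPM in depleted RPF, 28854 to 33061 CPM in steady-state RPF and 14.5 to 72.5 CPM in FRC. Coch took most of that sum in RPF, with means of 18542 CPM in depleted and 29558 CPM in steady-state RPF. Tcf21 averaged 213 CPM in depleted RPF, 715 CPM in steady-state RPF and 2.70 CPM in FRC. It was called lower in depleted than in steady-state RPF (edgeR adjusted p = 0.00363), and edgeR did not call the other 4. All 5 averaged lower in depleted RPF, with a median log2 difference of -0.83. DESeq2 called 2 of the 5 lower and limma-voom 4, and 0 were called higher. Levels are CPM, read counts scaled to library size after TMM normalisation, and the labels say of a replicate only that it pooled 2 mice, so libraries of FRC and steady-state RPF are not independent of each other.

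The genes lie on 4 chromosomes, in build mm10. Selenbp1 (ENSMUSG00000068874) spans chr3:94933056-94944758 on the plus strand and has 12 exons in its longest coding transcript. Htra3 (ENSMUSG00000029096) spans chr5:35652023-35679782 on the minus strand, with 9 exons. Mrap2 (ENSMUSG00000042761) spans chr9:87144306-87184045 on the plus strand, with 5 exons. Tro (ENSMUSG00000025272) spans chrX:150645304-150657583 on the minus strand, with 13 exons. No other annotated gene overlaps any of them, so none has an annotated antisense partner, and the strand setting of the counting is not stated. RefSeq (GRCm38.p6) gave promoters for 3 of the 4, from 250 bases before to 50 bases after the start, and these are shown because the genes were low together in the same libraries. Capitals mark matches, on either strand, to the motifs searched, which were the TATA box (TATAAA), the CCAAT box, the GC box (GGGCGG), an E-box (CAGCTG), the cAMP response element (TGACGTCA) and the AP-1 site (TGANTCA).
Selenbp1 promoter, chr3:94932833-94933132, plus strand: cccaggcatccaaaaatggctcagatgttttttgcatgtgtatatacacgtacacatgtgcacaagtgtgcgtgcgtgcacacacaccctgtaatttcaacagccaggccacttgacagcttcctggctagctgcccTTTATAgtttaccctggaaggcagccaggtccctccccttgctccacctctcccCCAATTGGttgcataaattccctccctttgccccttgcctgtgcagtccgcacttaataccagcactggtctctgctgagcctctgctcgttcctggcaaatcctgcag
Htra3 promoter, chr5:35679731-35680030, minus strand: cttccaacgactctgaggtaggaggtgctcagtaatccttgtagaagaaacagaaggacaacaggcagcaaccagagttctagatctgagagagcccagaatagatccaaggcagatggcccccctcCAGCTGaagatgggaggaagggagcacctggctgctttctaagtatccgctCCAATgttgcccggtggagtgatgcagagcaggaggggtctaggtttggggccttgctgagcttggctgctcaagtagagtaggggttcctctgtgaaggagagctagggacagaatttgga
Mrap2 promoter, chr9:87144056-87144355, plus strand: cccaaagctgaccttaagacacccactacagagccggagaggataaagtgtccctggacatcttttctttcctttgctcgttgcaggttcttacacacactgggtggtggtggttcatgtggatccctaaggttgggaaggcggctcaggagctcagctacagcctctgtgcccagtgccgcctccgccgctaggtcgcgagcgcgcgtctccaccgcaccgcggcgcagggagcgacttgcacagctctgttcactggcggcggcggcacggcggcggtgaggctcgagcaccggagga

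No motif was found in all 3 promoters. The Selenbp1 window held the TATA box on its minus strand and the CCAAT box on both strands, where the matches overlap. The Htra3 window held the CCAAT box and the E-box on the strand printed, and the Mrap2 window held none of the 6 motifs. Of 32851 promoters of this length, 13.6% held the TATA box, 37.4% the CCAAT box, 35.7% the GC box, 16.3% the E-box, 1.79% the cAMP response element and 7.81% the AP-1 site. Mrap2 had 24 CpG dinucleotides and 62.7% G or C, against a median of 7 CpG and 52.7% over all promoters. Htra3 had 3 CpG and 53.7% G or C, and Selenbp1 had 5 CpG and 53.0%, so both lay below the median for CpG and close to it for G or C.

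Selenbp1 has a near-identical neighbour, Selenbp2 (ENSMUSG00000068877), on the same chromosome. Their coding sequences matched at 98.7% of 1416 bases and their promoters at 94.4% of 288 aligned bases. Of the 50-base windows of the Selenbp1 transcript 52.3% also occur in Selenbp2, and 21.3% of the 100-base windows do. The stretch from coding base 390 to 449 is shown because it holds 4 differences, in capitals, and so tells the transcripts apart.
Selenbp1 coding 390 to 449: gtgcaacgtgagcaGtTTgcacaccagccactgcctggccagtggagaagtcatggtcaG
Selenbp2 coding 390 to 449: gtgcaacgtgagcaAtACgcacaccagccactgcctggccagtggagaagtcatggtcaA
Reads that fit both genes may have been dropped or split, so the level of Selenbp1 is uncertain to that extent. Selenbp2 itself had 1, 0 and 4 counts in depleted RPF, 175, 14 and 7 counts in steady-state RPF, and 80, 13 and 0 counts in FRC. Its highest library at steady state was replicate 1 in both tissues, the libraries with few Y-linked reads. Selenbp1 counts were far above these in every library.

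In depleted RPF the 4 genes were low in every library, and 2 of them were at or next to 0. Selenbp1 had 9.45, 14.1 and 10.9 CPM in the depleted RPF libraries, against 187, 212 and 231 CPM in steady-state RPF. The mean was 11.5 ± 2.35 CPM in depleted and 210 ± 22.2 CPM in steady-state RPF (SD, n = 3 each), 18.3-fold lower after depletion. Htra3 had 16.4, 21.6 and 19.9 CPM in depleted RPF, against 210, 300 and 286 CPM in steady-state RPF. Its means were 19.3 ± 2.69 CPM in depleted and 265 ± 48.3 CPM in steady-state RPF (n = 3 each), 13.7-fold lower after depletion. The lowest steady-state value of Htra3 was in replicate 1.

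Mrap2 had 1, 0 and 0 counts in depleted RPF, against 1374, 1218 and 1516 counts in steady-state RPF. On the scaled level the steady-state libraries stood at 29.2, 24.0 and 50.1 CPM, with replicate 3 the highest, and averaged 34.5 ± 13.8 CPM (n = 3). The pooled ratio was 3749-fold lower in depleted RPF, with a 95% counting interval of 673 to 148118 that rests on 1 read. Tro had 0 counts in each of the 3 depleted libraries, against 931, 594 and 278 counts in steady-state RPF. Its steady-state levels were 19.8, 11.7 and 9.20 CPM, a mean of 13.6 ± 5.55 CPM (n = 3), so Tro was at least 528-fold lower after depletion, with the depleted group set to 3 counts in all. A count of 0 allows a level of up to 0.0669 to 0.0862 CPM in these depleted libraries. Tro is X-linked, and its highest steady-state library was the 1 with few Y-linked reads. In the other steady-state RPF libraries, which like the depleted ones had many Y-linked reads, Tro was at 11.7 and 9.20 CPM. Interval and floor cover counting error only, and in these bulk samples fewer cells of a type and less RNA per cell cannot be told apart.

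**Figure D1:**
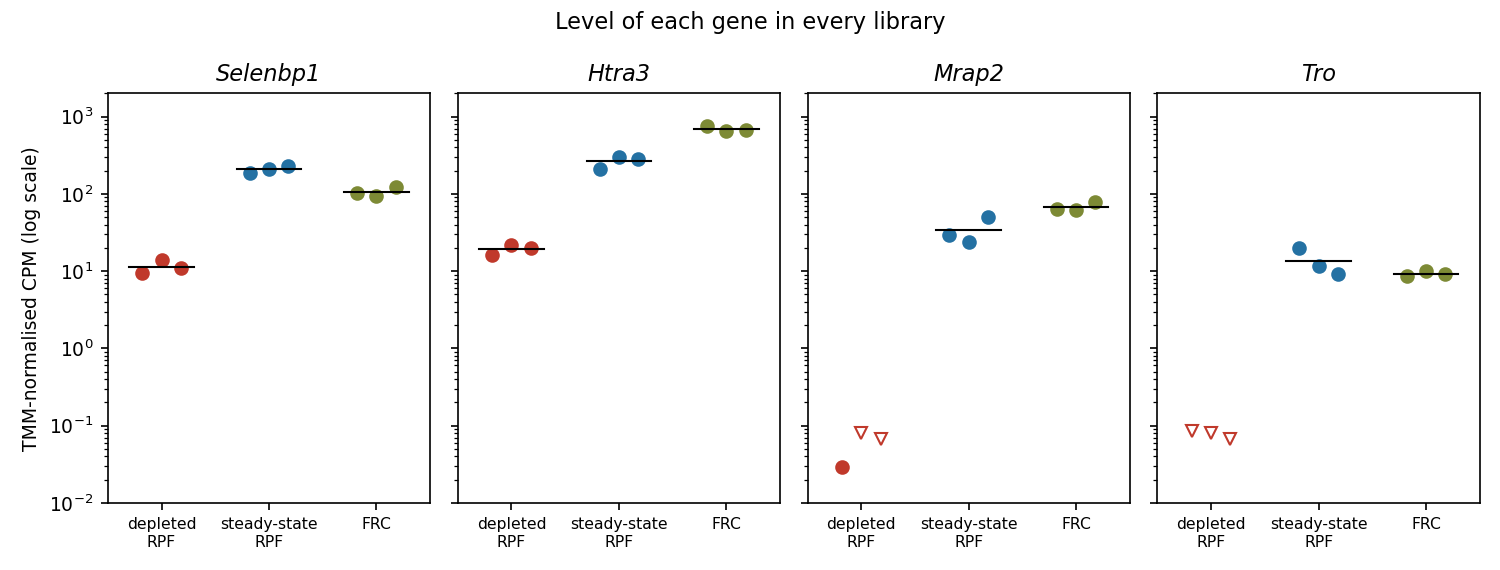
Level of each gene (TMM-normalised CPM, log scale) in the 3 libraries of depleted RPF, steady-state RPF and FRC; filled points are libraries, bars are group means, and open triangles stand at the level that 3 counts would give in a library with 0 counts. Selenbp1 and Htra3 sit between 9.45 and 21.6 CPM in depleted RPF, while Mrap2 and Tro have at most 1 count there.

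Against all genes, these differences were at the far end of the range. Of 8406 genes with a mean of at least 10 CPM in steady-state RPF, 1.23% were at least 10-fold lower in depleted RPF and 0.155% at least 100-fold lower. All 4 members were past 10-fold and Mrap2 and Tro past 100-fold, which the choice of the genes fixed. In rank of the ratio of means, Mrap2 was at 5, Selenbp1 at 54 and Htra3 at 74, and Tro was 1 of 4 of these genes with 0 counts, with Cd5l, C1qa and 3632451O06Rik. Cd5l and C1qa are genes of red pulp macrophages. Over all 15103 genes tested, edgeR called 9.96% lower and 11.1% higher in depleted RPF.

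**Figure D2:**
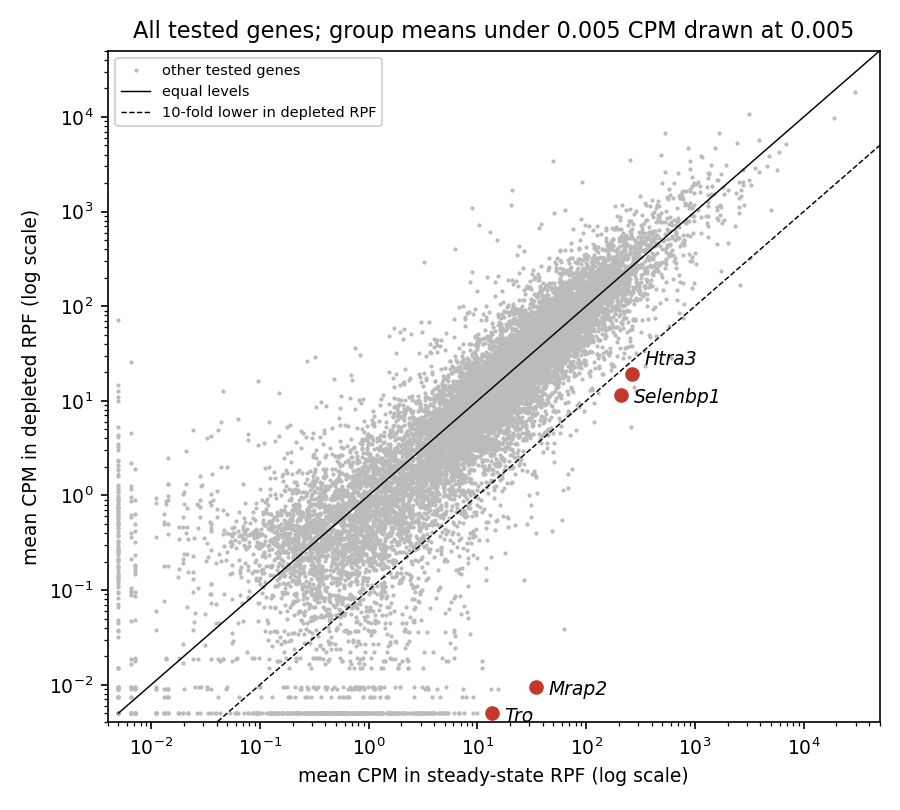
Mean level in depleted RPF (y) against steady-state RPF (x), both in CPM on log scales, for all tested genes (grey) and the 4 members (red), with group means under 0.005 CPM drawn at 0.005. Htra3 and Selenbp1 lie just below the line of a 10-fold lower level, and Mrap2 and Tro lie at the bottom of the plot.

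Macrophage markers moved with the same libraries. The 13 red pulp macrophage genes with a row summed to 1.25 to 11.1 CPM in depleted RPF. Their sum was 183 to 205 CPM in steady-state RPF and 90.5 to 122 CPM in FRC. Most of the FRC sum came from Slc11a1, Spic and Timd4, with means of 37.3, 26.9 and 21.0 CPM. In steady-state RPF these genes averaged less, at 15.5, 16.2 and 2.36 CPM. All others of the 13 averaged lower in FRC than in steady-state RPF. Cd5l, Adgre1, Cd163 and Mrc1 averaged 0, 0.153, 0.0227 and 0.101 CPM in FRC, against 12.8, 9.16, 11.9 and 7.57 CPM in steady-state RPF. Of the 12 tested, 8 were lower in depleted than in steady-state RPF and 0 were higher, against 9.96% lower and 11.1% higher over all genes. DESeq2 and limma-voom called 9 and 10 lower. Of the 13, 4 (Cd5l, C1qa, Adgre1 and Fcgr1) had 0 counts in depleted RPF. Fcgr1 encodes CD64. Endothelial markers summed to 32.0 to 44.5 CPM in depleted RPF, 73.5 to 180 CPM in steady-state RPF and 59.4 to 79.6 CPM in FRC. B cell markers summed to 2.83 to 10.7 CPM in depleted RPF, 15.8 to 40.6 CPM in steady-state RPF and 22.3 to 53.0 CPM in FRC. Neutrophil markers summed to 2.37 to 47.0 CPM in depleted RPF, 45.7 to 338 CPM in steady-state RPF and 0.0682 to 6.56 CPM in FRC. Erythroid, mesothelial and Schwann cell markers overlapped between depleted and steady-state RPF. Mural markers summed to 1732 to 2034 CPM in depleted and 1153 to 1338 CPM in steady-state RPF, with Des the largest part. Des (1657 ± 165 CPM in depleted, 771 ± 171 CPM in steady-state RPF) and Mcam were called higher in depleted RPF. Kcnj8 (48.4 ± 17.8 CPM in depleted, 435 ± 79.0 CPM in steady-state RPF) and Abcc9 were called lower. The 6 fibroblast markers, Dcn and Col1a1 among them, summed to 3856 to 4367 CPM in depleted RPF, 3767 to 3982 CPM in steady-state RPF and 35572 to 39488 CPM in FRC. Within that sum Pdgfrb rose to 2331 ± 106 CPM in depleted RPF, against 942 ± 27.7 CPM in steady-state RPF (edgeR adjusted p = 4.89e-05), while Col1a2 fell to 806 ± 123 CPM in depleted RPF, against 1855 ± 73.2 CPM in steady-state RPF (edgeR adjusted p = 0.000186), and Dcn was called lower too. Pdpn, which encodes gp38, was at 0.0733 CPM in depleted RPF, 0.0981 CPM in steady-state RPF and 74.1 CPM in FRC. The part of other cell types in the levels of the 4 genes was not tested.

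The choice used no FRC library, but it used the steady-state RPF libraries compared with FRC here, so these tests are not independent of it. At steady state the genes differed between the tissues in different ways. Selenbp1 was at 187, 212 and 231 CPM in steady-state RPF and at 102, 95.4 and 123 CPM in FRC. It was 1.96-fold higher in RPF (log2 difference 0.97, SE 0.18, edgeR adjusted p = 0.00355), in a comparison where 25.9% of genes were called, 11.5% higher and 14.4% lower. Htra3 went the other way, at 210, 300 and 286 CPM in steady-state RPF and 768, 654 and 666 CPM in FRC. It was 2.63-fold lower in RPF (log2 difference -1.39, SE 0.17, edgeR adjusted p = 0.000315). Both directions and calls held under all 17 alternatives.

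Mrap2 and Tro did not pass the test between tissues. Mrap2 was at 29.2, 24.0 and 50.1 CPM in steady-state RPF and at 63.7, 62.2 and 78.6 CPM in FRC (log2 difference -0.98, SE 0.34, edgeR adjusted p = 0.0644). Without replicate 3 of steady-state RPF, its highest library there, the difference was -1.35 at an adjusted p of 0.0313, and DESeq2 gave an adjusted p of 0.0253. For RFPSS over FRCSS the authors' deposited table gives log2 fold changes of -0.93 for Mrap2 (adjusted p = 0.0319) and 0.54 for Tro (adjusted p = 0.70). Tro was at 19.8, 11.7 and 9.20 CPM in steady-state RPF and at 8.53, 10.2 and 9.19 CPM in FRC, and these groups overlapped (log2 difference 0.55, SE 0.47, edgeR adjusted p = 0.468).

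Against FRC the depleted RPF values are those that chose the genes, so the levels are given with no test. Over all genes, 35.8% were called in this comparison, 16.9% higher and 18.8% lower. Selenbp1 averaged 11.5 ± 2.35 CPM in depleted RPF and 107 ± 14.3 CPM in FRC (n = 3 each), 9.31-fold lower. Htra3 averaged 19.3 ± 2.69 CPM in depleted RPF and 696 ± 62.9 CPM in FRC, 36.02-fold lower. Mrap2, at 1 count in depleted RPF and 6558 counts in FRC, had a ratio of 7990-fold lower with a 95% counting interval of 1434 to 315625. Tro, at 0 counts in depleted RPF and 887 counts in FRC, was at least 362-fold lower. So the order of the groups was FRC, steady-state RPF, depleted RPF from high to low for Htra3 and Mrap2, with the upper pair of Mrap2 not called. For Selenbp1 it was steady-state RPF, FRC, depleted RPF, and for Tro the upper pair did not differ beyond their spread.

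Levels between genes can be compared only per length. By the deposited median transcript length, steady-state RPF had 144 CPM per kb of Selenbp1, 298 of Htra3, 16.9 of Mrap2 and 7.45 of Tro. By the longest coding transcript, the levels per kb were 123, 96.4, 16.3 and 2.05 CPM. Mrap2 and Tro were the lower pair by either length, whereas the order of Selenbp1 and Htra3 depended on it.

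The authors' deposited table also names a further group, FRCDS, which the labels do not spell out and whose libraries were not analysed here. The signs of the authors' RFPSS over RFPDS column, read as first group over second, matched the counts in 100% of 3400 genes. These were the genes above 10 CPM with an authors' adjusted p under 0.05. Read the same way, RFPSS over FRCSS matched in 96.2% of 3653 such genes. A positive value is therefore read as a lower level in the group named second. The columns with FRCDS were not checked in this way. For Mrap2 the authors' deposited table gives a log2 fold change of 10.21 for RFPSS over RFPDS and 10.28 for FRCSS over FRCDS (adjusted p = 7.42e-34 for the second). Tro has 8.58 and 4.32 in the authors' deposited table, with an adjusted p of 0.000405 for FRCSS over FRCDS. For Selenbp1 the authors' deposited table has 4.24 and 0.56 (adjusted p = 0.127 for the second), and for Htra3 3.83 and 0.71 (adjusted p = 0.0172). In FRCSS over FRCDS the authors' deposited table holds 811 of 15582 genes under an adjusted p of 0.05, 5.2% of them, with 2.53% of all genes higher and 2.67% lower in FRCSS. Between RFPDS and FRCDS the authors' deposited table gives log2 fold changes of -3.73 for Tro (adjusted p = 0.00265), -2.66 for Selenbp1 (adjusted p = 1.28e-30) and -4.46 for Htra3 (adjusted p = 1.76e-99). Mrap2 has -0.86 there and did not pass (adjusted p = 0.576). Whether the change differs between the RPF and the FRC pair was not tested.

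**Figure D3:**
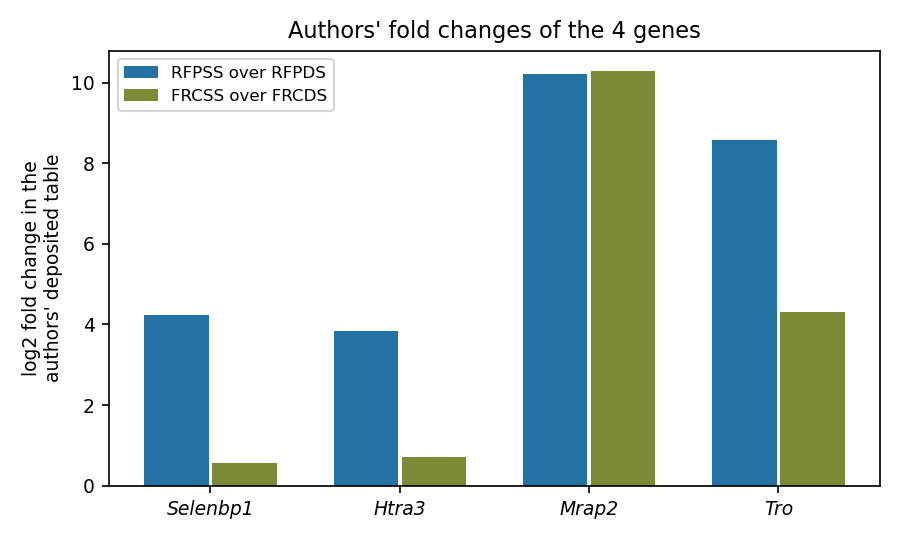
Log2 fold change of the 4 genes in the authors' deposited table, RFPSS over RFPDS (blue) and FRCSS over FRCDS (green). The bars of Mrap2 are 10.21 and 10.28, those of Tro 8.58 and 4.32, those of Selenbp1 4.24 and 0.56, and those of Htra3 3.83 and 0.71.

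No relative of Htra3 passed the test after depletion. Of the 3 other HtrA genes, edgeR called 0 higher and 0 lower in depleted RPF, against 11.1% and 9.96% of all genes tested. The count for the 3 was also 0 at an unadjusted p under 0.05, with DESeq2 and with limma-voom. Htra1, a secreted protease with the same domains, was at 435 ± 5.60 CPM in depleted and 433 ± 12.5 CPM in steady-state RPF (n = 3 each, log2 difference 0.01, SE 0.11, edgeR adjusted p = 0.977). In FRC Htra1 stood at 1949 ± 243 CPM, and steady-state RPF were lower by a log2 difference of -2.17 (edgeR adjusted p = 2.45e-06), the direction also seen for Htra3. Htra2, the mitochondrial member, had 25.3 and 19.8 CPM in depleted and steady-state RPF, and Htra4 averaged under 1 CPM in both groups.

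Of 9 tested TGF-beta and BMP ligands and small proteoglycans, families with known targets of HtrA3, 2 rose and 2 fell after depletion. Their median log2 difference was -0.50, against -0.09 over all genes tested, of which 11.1% were called higher and 9.96% lower. Tgfb1, a ligand that drives matrix production, rose to 153 ± 32.3 CPM in depleted RPF, against 67.5 ± 3.86 CPM in steady-state RPF (log2 difference 1.18, edgeR adjusted p = 0.00461). Tgfb3 rose to 55.4 ± 5.52 CPM in depleted RPF, against 25.6 ± 9.05 CPM in steady-state RPF (1.11, edgeR adjusted p = 0.0156), a call lost at adjusted p = 0.0525 without replicate 3 of depleted RPF and at 0.0559 without replicate 3 of steady-state RPF. The proteoglycan Bgn fell to 3044 ± 313 CPM in depleted RPF, against 4624 ± 134 CPM in steady-state RPF (-0.60, edgeR adjusted p = 0.00253). Dcn, the decorin gene, had 12.3 ± 3.21 CPM in depleted and 30.6 ± 16.4 CPM in steady-state RPF (-1.32, edgeR adjusted p = 0.0338). That call was lost in 7 of 17 alternatives, among them leaving out replicate 2 or 3 of depleted RPF or replicate 1 or 2 of steady-state RPF, with adjusted p up to 0.116. Bmp4, at 31.6 ± 12.7 and 104 ± 22.9 CPM in depleted and steady-state RPF, did not pass (edgeR adjusted p = 0.0704). Between steady-state RPF and FRC, where 25.9% of all genes were called, all 9 were, 3 higher (Tgfb1, Bmp4 and Bgn) and 6 lower. Of these, Bmp2 lost its call without any 1 of the steady-state RPF libraries or without replicate 1 or 3 of FRC, at adjusted p of up to 0.0915.

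Around Selenbp1, 8 other genes of sulfide and methanethiol handling were tested. After depletion 1 rose and 2 fell (median log2 difference -0.90), against 11.1% higher and 9.96% lower over all genes. Tst, a mitochondrial sulfurtransferase, fell to 13.8 ± 2.65 CPM in depleted RPF, against 52.9 ± 8.72 CPM in steady-state RPF (log2 difference -1.94, edgeR adjusted p = 0.000592). In FRC it was at 15.7 ± 2.45 CPM, so steady-state RPF were higher than FRC (1.75, edgeR adjusted p = 0.00066), as for Selenbp1. Mpst, which makes hydrogen sulfide from mercaptopyruvate, fell to 2.45 ± 1.68 CPM in depleted RPF, against 14.8 ± 2.27 CPM in steady-state RPF (-2.59, edgeR adjusted p = 0.0192). Its call was lost without replicate 2 or 3 of depleted RPF and without replicate 2 or 3 of steady-state RPF, at adjusted p of 0.0508 to 0.0687. Sqor, the enzyme that oxidises sulfide in mitochondria, rose to 154 ± 29.2 CPM in depleted RPF, against 78.0 ± 13.6 CPM in steady-state RPF (0.98, edgeR adjusted p = 0.00429). Selenbp2 did not pass (edgeR adjusted p = 0.156), nor did Ethe1, at 16.9 and 22.5 CPM, or Suox, at 13.9 and 36.4 CPM in depleted and steady-state RPF. Cth, with 96 counts in depleted and 1 count in steady-state RPF (edgeR adjusted p = 0.0597), and Cbs (edgeR adjusted p = 0.987) did not pass either. DESeq2 called 2 of the 8 higher and 3 lower, and limma-voom 1 higher and 2 lower. Among the DESeq2 calls, Selenbp2 was lower (log2 difference -5.18, DESeq2 adjusted p = 0.0480), on 5 counts in depleted RPF. For Selenbp2 the authors' deposited table gives 3.34 for RFPSS over RFPDS (adjusted p = 0.0331).

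Selenbp1 binds selenium but is no selenoprotein. Of 20 selenoprotein genes tested, 3 rose and 2 fell after depletion, close to the 11.1% higher and 9.96% lower over all genes, with a median log2 difference of -0.12. Selenop, the secreted selenium carrier, fell to 179 ± 34.9 CPM in depleted RPF, against 733 ± 62.3 CPM in steady-state RPF (log2 difference -2.04, edgeR adjusted p = 7.03e-05). Selenom, of the endoplasmic reticulum, fell to 15.7 ± 3.82 CPM in depleted RPF, against 51.1 ± 12.1 CPM in steady-state RPF (-1.70, edgeR adjusted p = 0.00174). Txnrd1, the cytosolic thioredoxin reductase, rose to 350 ± 128 CPM in depleted RPF, against 118 ± 31.9 CPM in steady-state RPF (1.57, edgeR adjusted p = 0.00448). Gpx1, a peroxidase of the cytosol, rose to 892 ± 147 CPM in depleted RPF, against 464 ± 42.8 CPM in steady-state RPF (0.94, edgeR adjusted p = 0.00319). Selenof was called higher at an adjusted p of 0.048 (log2 difference 0.35), a call lost in 12 of 17 alternatives, each left-out RPF library and the RLE and upper quartile scalings among them, with adjusted p up to 0.164. Gpx3, the most abundant of the list, was at 2642 ± 749 CPM in depleted and 3842 ± 536 CPM in steady-state RPF (edgeR adjusted p = 0.109).

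Few reads came from the melanocortin receptors that could be read. Of these, Mc1r had 0, 19 and 43 counts in all libraries of depleted RPF, steady-state RPF and FRC, Mc2r 0, 0 and 11, and Mc4r 0, 21 and 0. These 3, with Agrp and Prokr2, did not reach the filter, and Mc3r, Mc5r, Asip and Ghsr were not analysed here, so nothing is said of their levels. The 4 genes of that list tested beside Mrap2 were Mrap, Pomc, Prokr1 and Hcrtr1. Of these edgeR called 0 higher and 0 lower after depletion, against 11.1% and 9.96% of all genes tested. At an unadjusted p under 0.05, and with DESeq2 and limma-voom, 0 were higher and 1 was lower, which was Mrap. Its homologue Mrap had 0 counts in depleted RPF, 197 in steady-state RPF and 72 in FRC (edgeR adjusted p = 0.0974 between the RPF groups). Prokr1, a prokineticin receptor, had 8.57 ± 6.41 CPM in depleted RPF, 1.73 ± 2.85 CPM in steady-state RPF and 2.07 ± 3.58 CPM in FRC (edgeR adjusted p = 0.57 between the RPF groups). Hcrtr1, an orexin receptor, had 5.46 ± 2.43 CPM in depleted RPF and 1.84 ± 2.12 CPM in steady-state RPF (edgeR adjusted p = 0.405), and was listed with 0 counts in FRC.

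In the list of MAGE relatives and partners of Tro 7 genes were tested. After depletion 3 MAGE genes fell (Maged1, Maged2 and Mageh1) and 1 partner rose (Bysl), against 9.96% lower and 11.1% higher over all genes. The median log2 difference of the 7 was -0.73, and DESeq2 and limma-voom each called 5 lower and 1 higher. Maged1, an adaptor protein, fell to 283 ± 7.42 CPM in depleted RPF, against 488 ± 28.3 CPM in steady-state RPF (log2 difference -0.78, edgeR adjusted p = 0.00041). Maged2 fell to 94.5 ± 16.2 CPM in depleted RPF, against 202 ± 12.2 CPM in steady-state RPF (-1.10, edgeR adjusted p = 0.00311). Mageh1 fell to 28.9 ± 3.91 CPM in depleted RPF, against 47.8 ± 3.34 CPM in steady-state RPF (-0.73, edgeR adjusted p = 0.0196), a call lost without replicate 1 or 2 of depleted RPF or replicate 1 or 2 of steady-state RPF, at adjusted p of 0.0613 to 0.0737. Ndn, the necdin gene, was at 62.1 and 103 CPM in depleted and steady-state RPF and did not pass (edgeR adjusted p = 0.0761). Bysl, a ribosome assembly factor that binds trophinin in human cells, rose to 70.4 ± 0.825 CPM in depleted RPF, against 23.1 ± 6.72 CPM in steady-state RPF (1.61, edgeR adjusted p = 0.00215). Each of these named genes kept at least 28.9 CPM on average in depleted RPF, where Tro had 0 counts, but this does not hold for the whole list. Magee1 and Nsmce3, tested and not called, averaged less than that in depleted RPF, Magee1 also less than in steady-state RPF. Of the genes below the filter, Troap had 1 count in depleted RPF and more in steady-state RPF. Magee2 and Magel2 had 0 counts in both RPF groups. The lists were written with earlier results known, so their counts describe and are no independent evidence of a direction.

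**Figure D4:**
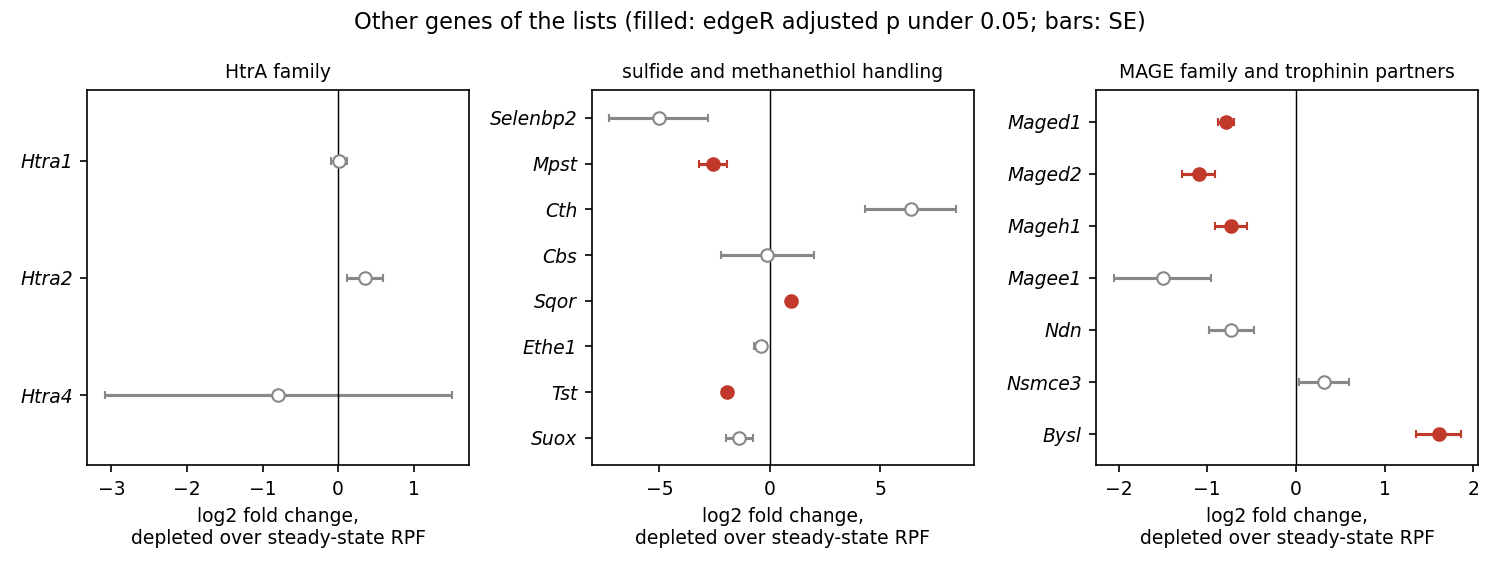
Log2 difference between depleted and steady-state RPF (bars are SE) for the tested genes beside the members in 3 lists, with red points for an edgeR adjusted p under 0.05. Htra1 lies at 0.01, Tst at -1.94 and Maged1 at -0.78, while Sqor and Bysl lie to the right of 0; the fitted values of Selenbp2 and Cth rest on groups with 5 counts and 1 count.

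The genes whose profile over the 9 libraries was closest to a member's shared its low level in depleted RPF. The libraries fall into 3 groups, so Pearson's r mainly reads the order of the group levels and is given as a description. Nearest to Selenbp1 was Igfbp4, a binding protein of insulin-like growth factors, with r = 0.998 and 1044 ± 138, 5002 ± 207 and 3676 ± 194 CPM in depleted RPF, steady-state RPF and FRC. Olfml1 (r = 0.989) followed with 12.2 CPM in depleted RPF, 128 CPM in steady-state RPF and 83.8 CPM in FRC. Tsc22d1 (r = 0.988), a transcription regulator, had 75.0 CPM in depleted RPF, 426 CPM in steady-state RPF and 336 CPM in FRC. For Htra3 the closest were Trp63 (r = 0.997), Epb41l3 (r = 0.997) and Tox (r = 0.996). Trp63, the p63 transcription factor, had 0 CPM in depleted RPF, 2.11 ± 0.63 CPM in steady-state RPF and 7.31 ± 1.38 CPM in FRC, and Epb41l3, a membrane skeleton protein, had 1 count in depleted RPF, 13.4 ± 3.39 CPM in steady-state RPF and 61.8 ± 20.4 CPM in FRC. Tox, a transcription factor, also had 1 count in depleted RPF, with 4.24 CPM in steady-state RPF and 17.7 CPM in FRC.

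Mrap2 and Tro shared a near neighbour in profile. The gene 3632451O06Rik had 0 counts in depleted RPF, 30.3 ± 4.02 CPM in steady-state RPF and 34.2 ± 11.9 CPM in FRC, with r = 0.991 to Mrap2 and 0.995 to Tro. The cytokine gene Il18 was closest to Mrap2 (r = 0.995), at 0, 5.20 and 6.59 CPM in depleted RPF, steady-state RPF and FRC. Ggt5, which processes leukotriene C, was next (r = 0.994), at 73.0 ± 2.95 CPM in depleted RPF, 268 ± 37.2 CPM in steady-state RPF and 318 ± 34.5 CPM in FRC. After it, Tro was closest to Isoc1 (r = 0.992), at 43.3 CPM in depleted RPF, 114 CPM in steady-state RPF and 103 CPM in FRC. Pink1 (r = 0.992), a mitochondrial kinase, had 28.4 ± 0.80 CPM in depleted RPF, 220 ± 13.6 CPM in steady-state RPF and 183 ± 20.9 CPM in FRC.

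Within 250 kb of the members on the chromosome lay 29 other protein-coding genes, 28 of them tested. After depletion 2 rose and 3 fell, near the share of 21% called over all genes. Near Selenbp1 the proteasome genes Psmb4 and Psmd4 rose by 0.65 and 0.43 on the log2 scale (edgeR adjusted p = 0.0134 and 0.0198), and Zfp687 fell by 1.48 (edgeR adjusted p = 0.00612). Near Htra3, Acox3, an enzyme of peroxisomal fat oxidation, fell to 16.4 CPM in depleted RPF, against 40.0 CPM in steady-state RPF (log2 difference -1.28, edgeR adjusted p = 0.00483). Near Tro, Maged2 fell as given above. The genes closest to Mrap2 and Tro were not called: Cep162 had 12.2 and 15.2 CPM in depleted and steady-state RPF, and Pfkfb1 had 0.828 and 1.49 CPM.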

How the data were processed

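The deposited table holds raw read counts per Ensembl gene of 9 polyA RNA libraries, which the authors made and which were used unchanged. The submitters' processing notes list HTSeq 0.6.1p1, STAR 2.5.3a, Bowtie2 2.2.8 and cutadapt 1.10, without roles, and mm10. Neither the strand setting nor the annotation release is stated. The authors' deposited log2 fold changes and adjusted p-values were copied for the 4 genes and Selenbp2. Over all genes they were used only for the check of signs and the share called in FRCSS over FRCDS. The deposited median transcript length in bases was used for levels per kb. A further 24 columns of per-sample values were not used.

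Of 27370 genes, 881 had no count and 15103 passed the filterByExpr filter, with all 4 members among them. One model with a term for each of the 3 groups was fitted to all 9 libraries with edgeR 4.0.16 in R 4.3.3 (TMM scaling, robust quasi-likelihood test, two-sided, 6 residual degrees of freedom). P-values were adjusted by Benjamini-Hochberg over all genes tested, and genes were called at an adjusted p under 0.05. No test is given for the members in depleted RPF, whose low values chose them. Levels are CPM after TMM normalisation. A group at 0 counts was set to 3 counts, which makes its fold a bound; with 1 count, the ratio has a 95% counting interval, and both cover counting error only. Libraries held 25414645 to 43879806 counts.

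The members and the gene lists were chosen with earlier results of these data known. Named genes are the members, the 3 protein-coding genes most like each over the 9 libraries (Pearson's r of log2 CPM with a prior count of 2), called genes within 250 kb, and the called and most abundant genes of 6 pathway lists. Gene models came from GENCODE M21 for GRCm38, and promoters from RefSeq on GRCm38.p6. The model was tested on simulated counts before use. Alternatives were upper quartile and RLE scaling, a filter of 1 CPM, no filter, DESeq2 1.42.0, limma-voom (limma 3.58.1), no robust prior, the compared groups alone, and leaving out each library. Those for the genes of the lists were added after seeing the data. Python 3.11.15 with matplotlib 3.10.9 drew the figures.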

Additional observations from a re-analysis of the deposited data

How the results depend on the processing

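Between steady-state RPF and FRC, Selenbp1, Htra3 and Tro kept their direction and their side of the threshold under all 17 alternatives. Mrap2 between steady-state RPF and FRC kept its direction, with log2 differences of -1.35 to -0.78 over the left-out libraries and adjusted p from 0.00534 to 0.189 over all alternatives. It passed with the 1 CPM filter (-1.003, adjusted p = 0.0485), DESeq2 (-0.96, adjusted p = 0.0253), limma-voom (-1.12, adjusted p = 0.00534) and without replicate 3 of steady-state RPF (-1.35, adjusted p = 0.0313); the cause was not tested. Between depleted and steady-state RPF the untested log2 ratio ran over the left-out libraries from -4.36 to -4.07 for Selenbp1 (-4.19 with all), from -3.92 to -3.67 for Htra3, from -12.02 to -9.88 for Mrap2 (-11.81 with all) and from -9.27 to -8.35 for Tro (-9.05 with all). The value of -9.88 for Mrap2 is without replicate 1 of depleted RPF, which holds its only read there, and it and the values for Tro are bounds whose floor depends on the depth left. Genes called ran from 2144 to 4309, from 2838 to 4973 and from 4292 to 6458 in the 3 comparisons. Selenbp2 between steady-state RPF and FRC (0.56 with all, adjusted p = 0.872) ran from -1.89 to 2.66 over the left-out libraries: it turned to -1.89 without replicate 1 of steady-state RPF, which holds most of its reads, and to -0.02 without replicate 3 of FRC, which holds none. Upper quartile scaling moved the median log2 difference of all genes between steady-state RPF and FRC to 0.14, against -0.02 with TMM. Between depleted and steady-state RPF that median was -0.09 with TMM, -0.14 with RLE and -0.19 with upper quartile scaling. The genes called there were 1671 higher and 1505 lower with TMM, 1564 and 1592 with RLE, and 1463 and 1688 with upper quartile scaling. Which direction held more calls thus depended on the scaling. No paired analysis was possible because the labels number no replicates and do not say which libraries share mice. The depth limits Mrap2 and Tro in depleted RPF to a ratio on 1 read and a bound.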
